A study of Mus musculus with 30 samples.

Results

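The 8 genes Bcl11b, Gata3, Tcf7, Lef1, Notch1, Runx3, Tox and Zbtb16 were followed in mouse multipotent progenitors. They were taken by symbol, as regulators known from early T cell and innate lymphoid development, and all 8 were found among the 24421 genes of each expression table. Every one of the 30 columns of the 5 tables was used.

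RNA was sequenced from bone marrow progenitors sorted by flow cytometry, in a series on the role of Bcl11a in the MPP3 and MPP4 subsets. The 10 groups held 3 libraries each: KOiMOS MPP3 of 3 months, WTiMOS MPP4 of 24 months, WTiMOS MPP4 of 3 months, WTiMOS MPP3 of 24 months and WTiMOS MPP3 of 3 months, each as T2 and as T1 cells. MPP3 is a progenitor subset known for myeloid output and MPP4 one known for lymphoid output. The series' design speaks of Bcl11a overexpression in wild-type MPP3; the labels do not say what T2 and T1 stand for, which of them carry it, in which cells Bcl11a was changed, or whether replicates are separate animals, so the p-values measure the spread between libraries, which may be technical. KOiMOS MPP3 of 24 months were not analysed here.

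As background, a progenitor that reaches the thymus is steered to the T cell fate when Notch1, a cell surface receptor, is bound by a ligand, is cleaved, and releases a fragment that acts in the nucleus with Rbpj. Tcf7 (TCF-1) and Lef1, closely related HMG box factors, and the zinc finger factor Gata3 are then switched on, and Bcl11b, a zinc finger factor and paralog of Bcl11a, closes off the other fates. Innate lymphoid cells draw on many of the same factors, with Tox, an HMG box protein, and Zbtb16 (PLZF), a BTB zinc finger factor, marking early steps. Runx3, a Runt domain factor, acts in CD8 T cells and in innate lymphoid cells. Tcf7 and Lef1 are also nuclear effectors of Wnt signalling, and Lef1 is a factor of early B cells too.

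Values are TPM, a unit scaled to the library total and corrected for transcript length, so levels can be set side by side between genes; the sequencing depth is unknown. Each library had between 10519 and 12008 genes at 1 TPM or more. Bcl11a averaged 68.2 ± 3.41 TPM in T2 and 70.3 ± 2.48 TPM in T1 libraries labelled KOiMOS, against 78.5 ± 6.06 TPM in T2 and 45.2 ± 2.79 TPM in T1 libraries labelled WTiMOS of the same cells and age (SD, n = 3 each), so a loss of its RNA is not seen in the libraries labelled KOiMOS; whether these values cover an altered part of the gene is not known. Its mean was higher in T2 than in T1 in the 4 WTiMOS tables. Flt3, a receptor that marks MPP4, averaged 196 ± 4.72 TPM in MPP4 and 27.99 ± 2.72 TPM in MPP3 for T2 cells of 24 months, and 179.7 ± 5.81 TPM in MPP4 and 87.6 ± 17.6 TPM in MPP3 for T1 cells of 3 months. For T2 cells of 3 months it averaged 116 ± 6.12 TPM in MPP4 and 146 ± 30.1 TPM in MPP3, the other direction, in a comparison whose all-gene median was -1.04. Y-linked genes summed to at most 0.184 TPM in the T1 groups of 24-month MPP3, 24-month MPP4 and 3-month MPP4, and to 33.8 TPM or more in the other 7 groups, so in those 3 tables T2 against T1 and the sex of the animals cannot be told apart, nor can sex and the MPP4 against MPP3 difference of 3-month T1 cells or the differences of T2 minus T1 between a table with and a table without that gap. The sums also differed without overlap in the remaining tables. They were 55.3 to 61.2 TPM in T2 and 110 to 114 TPM in T1 of KOiMOS MPP3. In 3-month WTiMOS MPP3 they were 33.8 to 58.5 TPM in T2 and 64.2 to 78.9 TPM in T1. The part of sex in the differences within and between these tables was not tested.

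The summed level of the 8 mature T cell markers found in the tables ran from 1.27 to 18.7 TPM. It was highest in T1 of 3-month WTiMOS MPP3, at 17.7 to 18.7 TPM against 2.85 to 5.23 TPM in T2 of that table, with Cd8a and Cd8b1 at 0. In bulk libraries, fewer cells of a type and less RNA per cell cannot be told apart. A difference is given on the scale log2(TPM + 1), which understates changes of genes near 0, with its standard error (SE). A gene was tested where at least 3 of the libraries compared reached 1 TPM, and called at an adjusted p under 0.05. A low gene can pass that filter through its high group alone, so the counts of called members below, and the calls of such genes, are descriptions and support nothing.

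**Figure D1:**
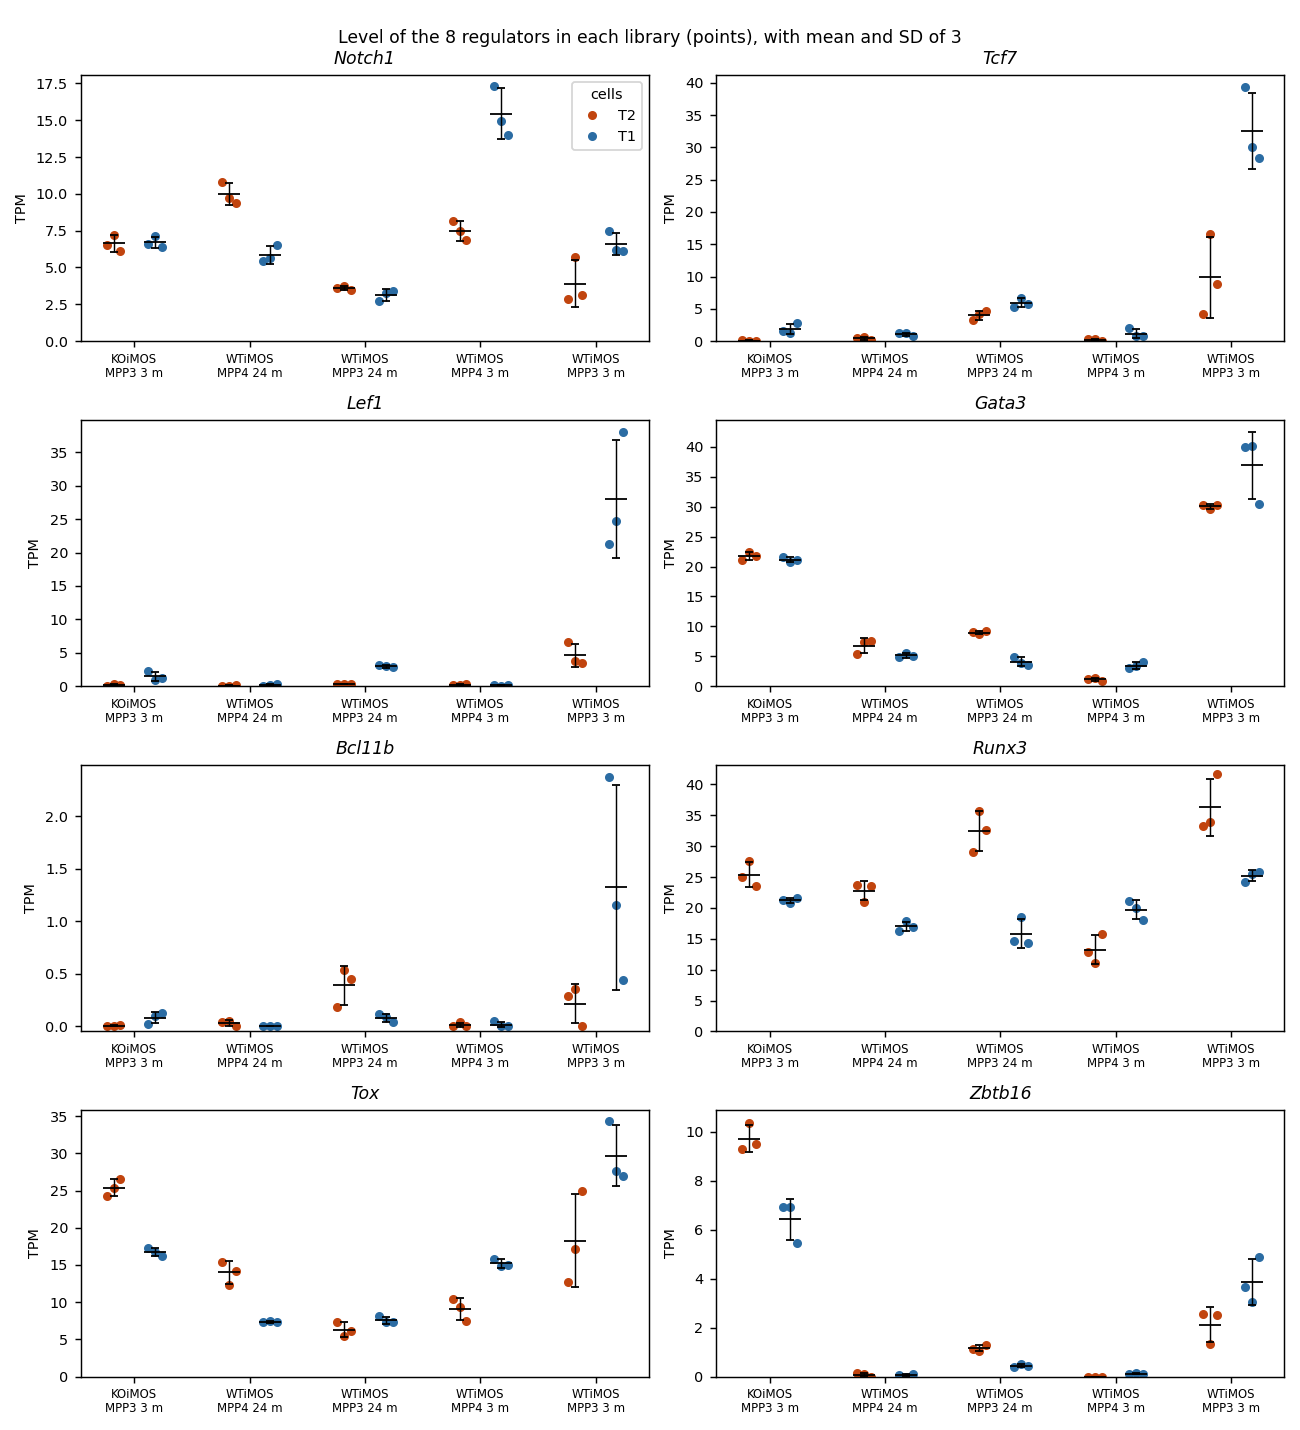
TPM of the 8 regulators in each of the 30 libraries (points, T2 in orange and T1 in blue), with mean and SD of 3 libraries, by table; vertical axes are linear and differ between genes. Tcf7 and Lef1 stand far above all other groups in T1 cells of 3-month WTiMOS MPP3, Notch1 is highest in T1 of 3-month MPP4 and Zbtb16 is highest in KOiMOS MPP3.

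T2 and T1 cells were compared within each table. In KOiMOS MPP3, 6 of the 8 genes were tested, 3 were higher and 1 lower in T2 (36.4% of all genes tested were called, 15.9% higher and 20.4% lower). In WTiMOS MPP3 of 24 months, 3 of 7 were higher and 2 lower (41.99% of all genes tested were called, 29.99% higher and 11.9996% lower). In WTiMOS MPP3 of 3 months, 1 of 7 was higher and 2 lower (14.3% of all genes tested were called, 8.39% higher and 5.96% lower). In WTiMOS MPP4 of 24 months, 3 of 4 were higher and 0 lower (65.2% of all genes tested were called, 58.2% higher and 7.003% lower). In WTiMOS MPP4 of 3 months, 0 of 4 were higher and 4 lower (81.3% of all genes tested were called, 8.71% higher and 72.6% lower).

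The MPP4 tables shifted as a whole, and the members with them. Their median difference was 0.54 at 24 months and -0.82 at 3 months, beside 0.43 and -0.74 over all genes. Each library was therefore also divided by its median ratio to the geometric mean of the libraries compared, which brought the all-gene medians to 0.04 and -0.04 and the calls from 6611 higher and 796 lower to 1690 and 2178 at 24 months, and from 983 and 8193 to 2879 and 3022 at 3 months. In MPP3 the members' and the all-gene medians were 0.14 and -0.04 in KOiMOS, 0.16 and 0.18 in WTiMOS of 24 months, and -0.68 and 0.10 in WTiMOS of 3 months. Rescaling moved the calls over all genes in 24-month MPP3 from 3394 higher and 1358 lower to 2129 and 2120, and in 3-month WTiMOS MPP3 from 983 and 699 to 552 and 900. Rescaled differences are given below where they bear on a call.

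**Figure D2:**
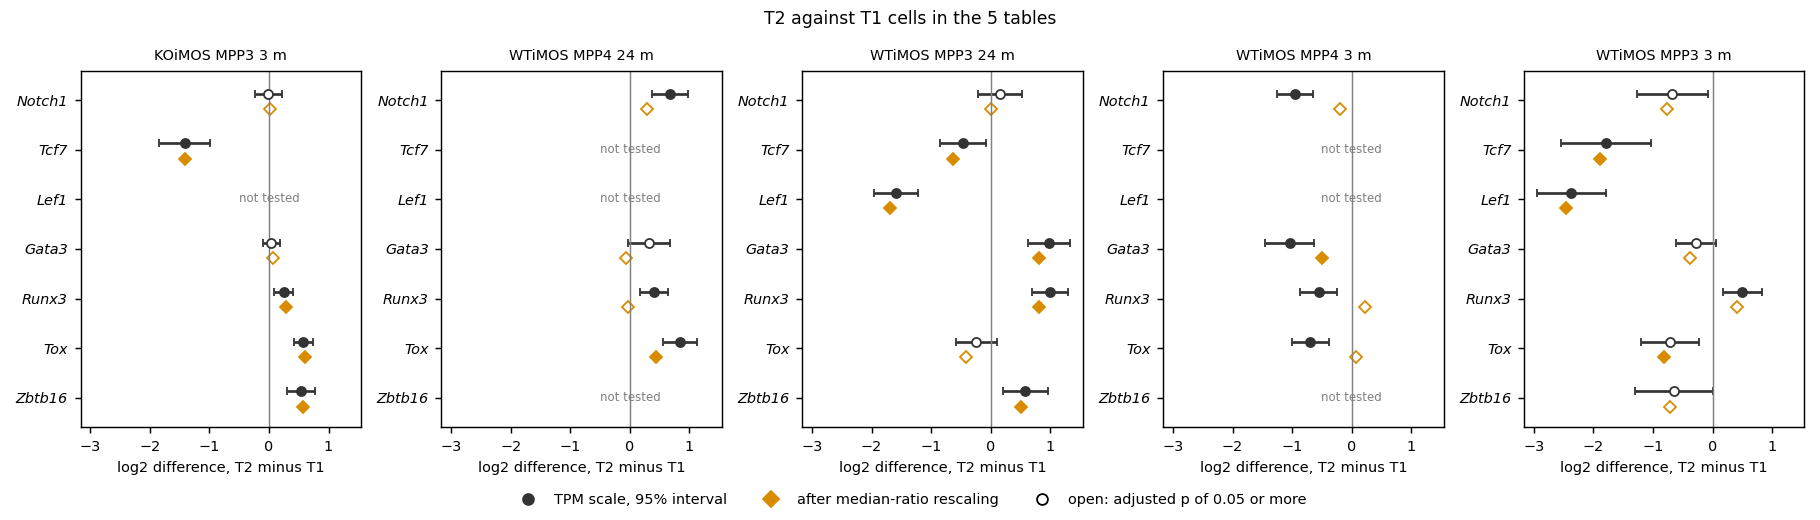
Log2 difference of T2 minus T1 cells for 7 of the 8 regulators in the 5 tables, on the TPM scale (circles with 95% intervals) and after median-ratio rescaling (diamonds); filled symbols have an adjusted p under 0.05. Tcf7 and Lef1 lie left of 0 wherever they were tested, and in MPP4 the rescaled symbols of Runx3 lie across 0 from the others. Bcl11b, tested nowhere, is left out.

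Tcf7 (chromosome 11, positions 52252371 to 52283014, minus strand, GRCm38) was lower in T2 than in T1 in each MPP3 table. In KOiMOS it had 0.183, 0 and 0 TPM in T2 libraries, against 1.63, 1.28 and 2.76 TPM in T1 (log2 difference -1.42, SE 0.20, adjusted p = 0.000124). The groups did not overlap, and T2 sat at or near 0, so the gene passed the filter through T1 alone. Of the 6 fits with 1 library left out, 3 did not test Tcf7 and 3 called it.

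In WTiMOS MPP3 of 3 months Tcf7 had 4.15, 16.6 and 8.82 TPM in T2 libraries, against 39.3, 30.1 and 28.4 TPM in T1 (log2 difference -1.79, SE 0.35, adjusted p = 0.00494). T2 replicate 2 was the highest of its group and still below every T1 library; with no filter on low values, which tests more genes, the call was lost (adjusted p = 0.0573). At 24 months Tcf7 had 3.28, 4.14 and 4.65 TPM in T2, against 5.30, 6.69 and 5.78 TPM in T1, again without overlap (log2 difference -0.47, SE 0.17, adjusted p = 0.0490). That last call was lost without T1 replicates 1, 2 and 3 (adjusted p = 0.0685, 0.143 and 0.115) and without T2 replicates 1 and 2 (0.107 and 0.0899). After rescaling the differences were -1.40 in KOiMOS, -0.63 at 24 months and -1.89 at 3 months, each called.

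In MPP4, Tcf7 stayed low and was not tested between T2 and T1. It had 0.535, 0.666 and 0.186 TPM in T2 and 1.24, 1.18 and 0.830 TPM in T1 at 24 months. At 3 months it had 0.317, 0.321 and 0.0871 TPM in T2 and 1.96, 0.725 and 0.754 TPM in T1. At neither age did the groups overlap, and T2 held the lower values.

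Lef1 (chromosome 3, positions 131110471 to 131224356, plus strand) had the same direction as Tcf7 in MPP3. In WTiMOS of 24 months it had 0.323, 0.367 and 0.287 TPM in T2, against 3.25, 2.96 and 2.83 TPM in T1 (log2 difference -1.60, SE 0.17, adjusted p = 2.86e-05). In WTiMOS of 3 months it had 6.60, 3.81 and 3.45 TPM in T2, against 21.3, 24.7 and 37.98 TPM in T1 (log2 difference -2.37, SE 0.27, adjusted p = 8.74e-05). Every T1 library was above every T2 library at both ages, and after rescaling the differences were -1.69 and -2.46, both called. At 24 months every T2 library was under 1 TPM, so Lef1 passed the filter through T1 alone. Of the 6 fits there with 1 library left out, 3 did not test Lef1 and 3 called it.

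In KOiMOS MPP3 Lef1 had 0, 0.302 and 0.175 TPM in T2 and 2.26, 0.884 and 1.28 TPM in T1, without overlap, and too few libraries reached 1 TPM for the test. With no filter on low values it was called there (log2 difference -1.06, adjusted p = 0.0106). In MPP4 no library exceeded 0.342 TPM, and the groups overlapped at both ages.

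B cell markers moved with Lef1 and Tcf7 in 2 of the 3 MPP3 tables. The sum of Ms4a1, Cd79a and Pax5 was 10.3 to 21.4 TPM in T2 and 135 to 163 TPM in T1 of 3-month WTiMOS MPP3, with Ms4a1 at 0 in both. It was 19.5 to 27.6 TPM in T2, with Pax5 at 0, and 21.99 to 50.3 TPM in T1 of 24-month MPP3, where these ranges overlapped while those of Lef1 did not. The KOiMOS MPP3 sum was 0.968 to 3.69 TPM in T2, with Ms4a1 and Pax5 at 0, and 4.26 to 8.47 TPM in T1. The part of B lineage cells in the Lef1 and Tcf7 differences was not tested.

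**Figure D3:**
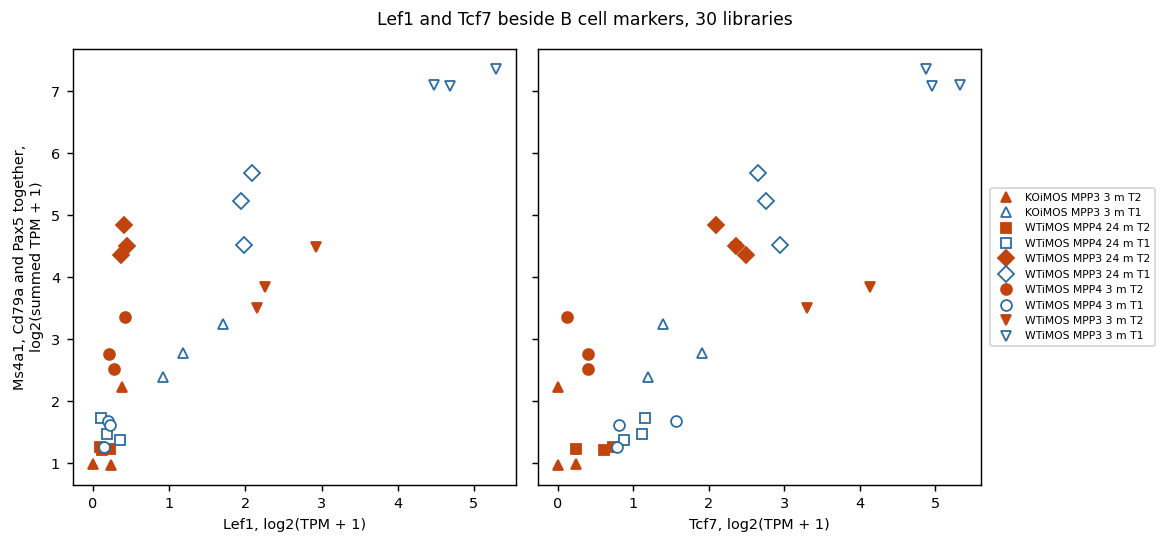
Summed level of 3 B cell markers against Lef1 (left) and Tcf7 (right) in the 30 libraries, both on log2(TPM + 1) axes; filled orange symbols are T2 and open blue symbols T1 libraries. The 3 T1 libraries of 3-month WTiMOS MPP3 sit apart at the top right in both panels, and T2 libraries of 24-month MPP3 combine marker sums of 19.5 to 27.6 TPM with Lef1 of at most 0.367 TPM.

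Promoter windows of 300 bases, 250 before and 50 after an annotated start, were read from RefSeq (GRCm38.p6) for 6 of the 8 genes, with none for Tox and Zbtb16. A Lef1 and a Runx3 window are shown because these genes moved in opposite directions in MPP3 and each window holds letters that the gene's own family of factors is known to bind; a Tcf7 window is shown because it holds none of the motifs searched. Capitals mark matches on either strand to letters that 4 families of factors are known to bind. The letters TGTGGT were searched for RUNX factors, a family that includes Runx3 itself. For the family of Tcf7 and Lef1 the letters CTTTGA were searched, for that of Gata3 the letters AGATAA, and for Rbpj, the partner of cleaved Notch1, the letters TGGGAA.
Lef1, chr3:131156044-131156343, plus strand: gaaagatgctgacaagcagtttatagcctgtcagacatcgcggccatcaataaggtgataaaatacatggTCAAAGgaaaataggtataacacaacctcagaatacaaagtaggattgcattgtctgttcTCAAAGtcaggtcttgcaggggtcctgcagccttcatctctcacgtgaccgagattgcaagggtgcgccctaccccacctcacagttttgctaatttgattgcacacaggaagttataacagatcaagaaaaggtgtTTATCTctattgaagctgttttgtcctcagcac
Runx3, chr4:135120395-135120694, plus strand: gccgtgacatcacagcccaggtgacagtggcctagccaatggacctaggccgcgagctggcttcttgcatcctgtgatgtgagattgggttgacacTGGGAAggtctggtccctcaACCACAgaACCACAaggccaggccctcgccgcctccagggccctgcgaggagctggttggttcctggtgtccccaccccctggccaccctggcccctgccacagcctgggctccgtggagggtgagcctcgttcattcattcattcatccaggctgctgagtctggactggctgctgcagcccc
Tcf7, chr11:52282965-52283264, minus strand: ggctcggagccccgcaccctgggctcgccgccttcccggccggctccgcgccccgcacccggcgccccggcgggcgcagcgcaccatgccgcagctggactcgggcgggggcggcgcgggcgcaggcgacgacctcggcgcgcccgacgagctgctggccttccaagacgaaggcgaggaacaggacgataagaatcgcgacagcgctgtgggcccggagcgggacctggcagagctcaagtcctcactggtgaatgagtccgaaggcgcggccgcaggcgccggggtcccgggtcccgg
The Lef1 window, the most downstream of its 4, holds 2 TCF/LEF matches on the minus strand, 180 and 120 bases before the start, and a GATA match 18 bases after it. The Runx3 window, the first of 2, holds RUNX matches 134 and 126 bases before the start and an RBPJ match 154 bases before it. The other Lef1 windows hold no TCF/LEF match and 1 RBPJ match each, and the other Runx3 window holds none of the letters searched. Of the windows not shown, that of Bcl11b holds a TCF/LEF match 89 bases before the start. Those of Gata3 and Notch1 and the other Tcf7 window hold none of the letters. Of 32851 RefSeq windows of this length, 16% hold the TCF/LEF letters, 16.8% the RUNX, 11.2% the GATA and 25.6% the RBPJ letters. A match is a description of letters and not a shown binding site.

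Runx3 (chromosome 4, positions 135120652 to 135177990, plus strand) was higher in T2 in each MPP3 table, opposite to Tcf7 and Lef1. In WTiMOS of 24 months it had 29.1, 35.7 and 32.6 TPM in T2, against 14.6, 18.5 and 14.4 TPM in T1 (log2 difference 0.996, SE 0.14, adjusted p = 0.000239). In KOiMOS it had 24.9, 27.6 and 23.6 TPM in T2, against 21.3, 20.8 and 21.6 TPM in T1 (log2 difference 0.24, SE 0.07, adjusted p = 0.0225). In WTiMOS of 3 months it had 33.3, 33.9 and 41.6 TPM in T2, against 24.3, 25.6 and 25.8 TPM in T1 (log2 difference 0.50, SE 0.15, adjusted p = 0.0456).

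T2 and T1 did not overlap for Runx3 in these 3 tables, and the 24-month difference was still called after rescaling (log2 difference 0.81, adjusted p = 0.00103). The 3-month WTiMOS call was lost on rescaling (log2 difference 0.40, adjusted p = 0.0948), with no filter (adjusted p = 0.0663), without T1 replicates 1, 2 and 3 (adjusted p = 0.145, 0.122 and 0.0976) and without T2 replicates 2 and 3 (0.0719 and 0.139). The KOiMOS call was lost without T1 replicates 1 and 2 (adjusted p = 0.0529 and 0.0768) and T2 replicates 1 and 2 (0.0504 and 0.0640).

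In MPP4, Runx3 moved with the whole table. It had 23.8, 21.005 and 23.6 TPM in T2, against 16.3, 17.8 and 16.9 TPM in T1 at 24 months (log2 difference 0.40, adjusted p = 0.00813). At 3 months it had 12.8, 11.1 and 15.7 TPM in T2, against 21.1, 19.96 and 18.01 TPM in T1 (log2 difference -0.55, adjusted p = 0.00264). On rescaling both differences turned sign and were not called, at -0.02 for 24 months and 0.23 for 3 months.

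Gata3 (chromosome 2, positions 9857078 to 9890034, minus strand) was higher in T2 of 24-month MPP3. It had 8.99, 8.68 and 9.19 TPM in T2, against 4.91, 3.92 and 3.47 TPM in T1 (log2 difference 0.97, SE 0.16, adjusted p = 0.000691; 0.81 after rescaling, also called). In KOiMOS MPP3 it had 21.1, 22.5 and 21.7 TPM in T2 and 21.6, 20.8 and 21.1 TPM in T1, which overlapped (log2 difference 0.04, 95% interval -0.11 to 0.19). In WTiMOS MPP3 of 3 months it had 30.3, 29.6 and 30.3 TPM in T2 and 40.1, 40.2 and 30.5 TPM in T1, where T1 replicate 3 lay close to T2 (log2 difference -0.28, adjusted p = 0.268).

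In 3-month MPP4, Gata3 had 1.26, 1.40 and 0.837 TPM in T2, against 2.99, 3.31 and 4.06 TPM in T1 (log2 difference -1.04, SE 0.19, adjusted p = 0.000151). It was the 1 member still called in that table after rescaling (log2 difference -0.50, adjusted p = 0.0443). At 24 months in MPP4 its libraries overlapped, with 5.31, 7.42 and 7.62 TPM in T2 and 4.81, 5.56 and 5.11 TPM in T1 (log2 difference 0.32, adjusted p = 0.0952). Without T2 replicate 1, the lowest T2 library, that difference was called (log2 difference 0.47, adjusted p = 0.0168).

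Bcl11b (chromosome 12, positions 107910403 to 108003602, minus strand), which marks T cell commitment, was hardly detected. It was listed at 0 in 11 of the 30 libraries, reached 1 TPM in 2 and was tested in no comparison. Both of these were T1 libraries of 3-month WTiMOS MPP3, where Bcl11b had 2.37, 1.15 and 0.438 TPM, against 0.286, 0.353 and 0 TPM in T2 of that table. In 24-month MPP3 it had 0.184, 0.533 and 0.444 TPM in T2 and 0.114, 0.0893 and 0.0384 TPM in T1, so there T2 held the higher values. Its paralog Bcl11a averaged 39.1 ± 5.63 TPM in T2 and 11.2 ± 2.32 TPM in T1 of the same table (log2 difference 1.73, adjusted p = 1.46e-05; SD, n = 3 each).

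Notch1 (chromosome 2, positions 26457903 to 26516663, minus strand) was detected in all 30 libraries, at 2.70 to 17.3 TPM. In KOiMOS MPP3 it had 6.54, 7.24 and 6.13 TPM in T2 and 6.57, 7.15 and 6.38 TPM in T1, which overlapped (log2 difference -0.01, 95% interval -0.24 to 0.21). WTiMOS MPP3 of 24 months had 3.59, 3.74 and 3.49 TPM in T2 and 2.70, 3.28 and 3.43 TPM in T1 (log2 difference 0.16, adjusted p = 0.468), and at 3 months 2.83, 5.71 and 3.14 TPM in T2 and 7.49, 6.19 and 6.14 TPM in T1 (log2 difference -0.68, adjusted p = 0.121). The 2 WTiMOS tables showed no overlap, with T2 on the high side at 24 months and on the low side at 3 months, yet neither difference passed the test. Without T2 replicate 2, the highest T2 library, the 3-month difference was called (log2 difference -0.93, adjusted p = 0.0482).

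In MPP4, Notch1 had 10.8, 9.72 and 9.36 TPM in T2, against 5.41, 5.64 and 6.56 TPM in T1 at 24 months (log2 difference 0.68, SE 0.14, adjusted p = 0.00169). At 3 months the direction was opposite, with 8.15, 7.44 and 6.85 TPM in T2, against 17.3, 14.96 and 13.99 TPM in T1 (log2 difference -0.95, SE 0.14, adjusted p = 2.27e-05). Rescaling left 0.28 at 24 months and -0.20 at 3 months, neither called (adjusted p = 0.125 and 0.199).

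Tox (chromosome 4, positions 6686353 to 6991557, minus strand) and Zbtb16 (chromosome 9, positions 48654297 to 48836222, minus strand) were both higher in T2 of KOiMOS MPP3. Tox had 24.3, 25.4 and 26.6 TPM in T2, against 17.3, 16.7 and 16.1 TPM in T1 (log2 difference 0.57, SE 0.07, adjusted p = 5.84e-05). Zbtb16 had 9.30, 10.4 and 9.49 TPM in T2, against 6.90, 6.91 and 5.47 TPM in T1 (log2 difference 0.53, SE 0.11, adjusted p = 0.00211). The T2 and T1 libraries of neither gene overlapped.

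The 3-month WTiMOS MPP3 libraries of both genes lay the other way. Tox had 12.7, 17.2 and 24.99 TPM in T2 and 34.4, 27.7 and 26.96 TPM in T1, just short of a call (log2 difference -0.71, SE 0.22, adjusted p = 0.0519). It was called after rescaling (log2 difference -0.81, adjusted p = 0.0282) and without T2 replicate 3, the highest T2 library (log2 difference -0.95, adjusted p = 0.0117). Zbtb16 had 2.55, 1.32 and 2.50 TPM in T2 and 3.64, 3.06 and 4.88 TPM in T1, without overlap and not called (log2 difference -0.65, adjusted p = 0.174).

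In 24-month MPP3, Zbtb16 had 1.13, 1.05 and 1.29 TPM in T2, against 0.389, 0.519 and 0.414 TPM in T1 (log2 difference 0.58, SE 0.17, adjusted p = 0.0180). Every T1 library was under 1 TPM, so the gene passed the filter through T2 alone. The call was lost without T1 replicates 1 and 3 (adjusted p = 0.0710 and 0.0716). Of the 6 fits with 1 library left out, 3 did not test Zbtb16 and 1 called it. Tox in 24-month MPP3 had 7.36, 5.43 and 6.10 TPM in T2 and 8.10, 7.33 and 7.28 TPM in T1, which overlapped (log2 difference -0.24, adjusted p = 0.246). In MPP4, Zbtb16 was at most 0.152 TPM in any library and was not tested between T2 and T1.

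Tox was well detected in MPP4. It had 15.5, 12.3 and 14.2 TPM in T2, against 7.32, 7.50 and 7.30 TPM in T1 at 24 months (log2 difference 0.84, SE 0.13, adjusted p = 0.000406), and was the 1 member called in that table after rescaling (log2 difference 0.43, adjusted p = 0.0219). At 3 months it had 10.4, 9.36 and 7.51 TPM in T2, against 15.8, 14.8 and 14.9 TPM in T1 (log2 difference -0.69, SE 0.14, adjusted p = 0.000463), and rescaling turned this to 0.07, not called.

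The T2 minus T1 difference was itself compared between tables, which share no library but differ as whole tables. KOiMOS against WTiMOS MPP3 of 3 months gave 3 of 7 tested members higher and 0 lower (20.9% of all genes tested were called, 7.84% higher and 13.04% lower). These were Tox (log2 difference 1.29, SE 0.26, adjusted p = 0.00297), Zbtb16 (log2 difference 1.18, SE 0.29, adjusted p = 0.0100) and Lef1 (log2 difference 1.30, SE 0.39, adjusted p = 0.0283). The Lef1 value is that of a gene near 0 in KOiMOS, and it was lost without any of KOiMOS T1 replicates 2 and 3, KOiMOS T2 replicates 2 and 3, WTiMOS T1 replicate 3 or WTiMOS T2 replicates 2 and 3 (adjusted p = 0.0777, 0.0633, 0.0646, 0.0579, 0.0645, 0.0555 and 0.0572 in that order). Leaving out 1 library added Gata3 (WTiMOS T1 replicate 3, adjusted p = 0.0259) or Notch1 (WTiMOS T2 replicate 2, adjusted p = 0.00808).

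Between the ages in WTiMOS MPP3, 24 against 3 months, 2 of 7 members were higher and 0 lower (15.2% of all genes tested were called, 9.80% higher and 5.36% lower). Gata3 was higher in T2 at 24 months and not at 3 months, and the difference of the differences was called (log2 difference 1.25, SE 0.22, adjusted p = 0.00130). Zbtb16 was the other (log2 difference 1.23, SE 0.33, adjusted p = 0.0209), lost without 3-month T1 replicate 3 (adjusted p = 0.0538) and 24-month T1 replicates 1 and 3 or T2 replicate 3 (0.0530, 0.0555 and 0.0502). Without 3-month T2 replicate 2, Tcf7 and Notch1 were called (adjusted p = 0.00366 and 0.0142), and without 3-month T2 replicate 1, Lef1 was (0.0399).

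Between the ages in MPP4, 4 of 5 members were higher and 0 lower (83.8% of all genes tested were called, 76.4% higher and 7.40% lower), beside an all-gene median of 1.16. Notch1 had 1.63, Tox 1.53, Gata3 1.37 and Runx3 0.95. After rescaling Notch1 alone of the 4 was called (log2 difference 0.46, adjusted p = 0.0327), and Runx3 turned to -0.27.

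MPP4 against MPP3 at 24 months gave 2 of 7 members higher and 2 lower in this difference of differences (20.6% of all genes tested were called, 16.2% higher and 4.40% lower). They were Lef1 (log2 difference 1.53, adjusted p = 0.000358), Tox (log2 difference 1.08, adjusted p = 0.00152), Gata3 (log2 difference -0.65, adjusted p = 0.0483) and Runx3 (log2 difference -0.59, adjusted p = 0.0246). Lef1 was near 0 in MPP4 and passed the filter through T1 of MPP3 alone, so its value restates its lower level in T2 of MPP3. Runx3 was lost without T1 replicates 1 and 3 or T2 replicate 2 of MPP3 (adjusted p = 0.0553, 0.0692 and 0.0637) and T1 or T2 replicate 2 of MPP4 (0.0587 and 0.0617). Gata3 was lost without MPP3 T1 replicates 2 and 3 (adjusted p = 0.0832 and 0.119), MPP3 T2 replicates 1, 2 and 3 (0.0586, 0.0737 and 0.0845), MPP4 T1 replicates 1, 2 and 3 (0.0655, 0.103 and 0.0823) and MPP4 T2 replicates 1 and 2 (0.102 and 0.0549).

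MPP4 against MPP3 at 3 months gave 1 of 7 higher and 2 lower (64.9% of all genes tested were called, 7.28% higher and 57.6% lower). Lef1 was the higher one (log2 difference 2.49, adjusted p = 1.14e-05). It was at most 0.342 TPM in MPP4, so this value restates its lower level in T2 of MPP3. Gata3 (log2 difference -0.77, adjusted p = 0.0107) and Runx3 (log2 difference -1.05, adjusted p = 0.000260) were lower beside an all-gene median of -0.81, and came to -0.10 and -0.09 after rescaling, neither called. Rescaling added Tcf7 (log2 difference 1.36, adjusted p = 0.0302) and Tox (log2 difference 0.95, adjusted p = 0.00888). Tcf7 was also called without MPP3 T2 replicate 2 or MPP4 T1 replicate 1 (adjusted p = 0.00444 and 0.0295).

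MPP4 and MPP3 levels were also compared directly. They came from separate tables, so cell type and table cannot be told apart, and in T1 cells of 3 months neither can cell type and sex (Y-linked genes at 0 in MPP4 and 64.2 to 78.9 TPM in MPP3). In T2 cells of 24 months 2 of 6 tested members were higher and 3 lower in MPP4 (38.8% of all genes tested were called, 31.6% higher and 7.19% lower), and in T1 cells 1 of 6 was higher and 2 lower (24.7% of all genes tested were called, 14.6% higher and 10.1% lower). In T2 cells of 3 months 1 of 7 was higher and 6 lower (82.7% of all genes tested were called, 20.5% higher and 62.2% lower), with a members' median of -1.62 beside -1.04 over all genes. In T1 cells of 3 months 1 of 7 was higher and 6 lower (77.3% of all genes tested were called, 33.3% higher and 44.001% lower), with medians of -2.10 and -0.17.

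Notch1 was higher in MPP4 in each of the 4 comparisons. The log2 difference was 1.25 in T2 and 0.73 in T1 cells of 24 months (adjusted p = 0.000225 and 0.00398), and 0.84 in T2 and 1.11 in T1 cells of 3 months (adjusted p = 0.00563 and 3.09e-05). Rescaled differences were 1.03, 0.71, 1.78 and 1.31 in the same order, each called. No MPP4 library overlapped an MPP3 library of its age and T label.

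Tcf7 was lower in MPP4 throughout. It averaged 0.462 ± 0.248 TPM in MPP4 and 4.03 ± 0.692 TPM in MPP3 for T2 cells of 24 months (log2 difference -1.79, adjusted p = 0.000174), and 1.15 ± 0.705 TPM in MPP4 and 32.6 ± 5.88 TPM in MPP3 for T1 cells of 3 months (log2 difference -4.001, adjusted p = 6.72e-09). Lef1 averaged 0.138 ± 0.0314 TPM in MPP4 and 28.002 ± 8.80 TPM in MPP3 for T1 cells of 3 months (log2 difference -4.63, adjusted p = 1.45e-09). In T1 cells of 24 months it averaged 0.160 ± 0.104 TPM in MPP4 and 3.01 ± 0.212 TPM in MPP3 (log2 difference -1.79, adjusted p = 9.01e-06; SD, n = 3 each). Lef1 here, and Tcf7 in T2 cells of 24 months, passed the filter through MPP3 alone. B cell marker sums of single libraries lay between 1.32 and 9.27 TPM in the 4 MPP4 groups and between 10.3 and 163 TPM in the 4 WTiMOS MPP3 groups, and their part in these differences was not tested.

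Zbtb16 was likewise lower in MPP4 in the 3 comparisons in which it was tested, each time passing the filter through MPP3 alone. In T2 cells of 24 months it averaged 0.0729 ± 0.0651 TPM in MPP4 and 1.16 ± 0.119 TPM in MPP3 (log2 difference -1.01, adjusted p = 0.00329), and in T2 cells of 3 months it was listed at 0 in all 3 MPP4 libraries beside 2.55, 1.32 and 2.50 TPM in MPP3. Gata3 was lower in MPP4 at 3 months, with 1.17 ± 0.293 TPM in MPP4 and 30.1 ± 0.385 TPM in MPP3 for T2 cells (log2 difference -3.85, adjusted p = 1.56e-10), and 3.45 ± 0.547 TPM in MPP4 and 36.9 ± 5.57 TPM in MPP3 for T1 cells (log2 difference -3.08, adjusted p = 3.68e-09). At 24 months it did not pass the test in T2 (log2 difference -0.37, adjusted p = 0.109) or T1 (log2 difference 0.28, adjusted p = 0.209), though the T2 difference was called after rescaling (log2 difference -0.60, adjusted p = 0.0246).

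Tox kept no single direction, and Runx3 was lower in MPP4 wherever it was called. In T1 cells of 24 months Runx3 was not called (log2 difference 0.10, adjusted p = 0.575). Tox was higher in MPP4 in T2 cells of 24 months (log2 difference 1.04, SE 0.16, adjusted p = 0.000759) and lower in T1 cells of 3 months (log2 difference -0.91, SE 0.13, adjusted p = 3.72e-05), both also after rescaling (0.81 and -0.70). In T2 cells of 3 months it was lower on the TPM scale (log2 difference -0.89, adjusted p = 0.00223) and turned to 0.17 on rescaling, not called. Runx3 was lower in MPP4 in T2 cells of 24 months (log2 difference -0.49, adjusted p = 0.0116; -0.74 rescaled), a call lost without T2 replicate 2 of MPP4 or of MPP3 (adjusted p = 0.0577 and 0.0594). At 3 months Runx3 was lower in MPP4 in T2 (log2 difference -1.40, adjusted p = 2.48e-06) and T1 (log2 difference -0.34, adjusted p = 0.0192), and neither was called after rescaling (adjusted p = 0.0948 and 0.306). The T1 call was also lost without MPP4 T1 replicate 3 (adjusted p = 0.0684).

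**Figure D4:**
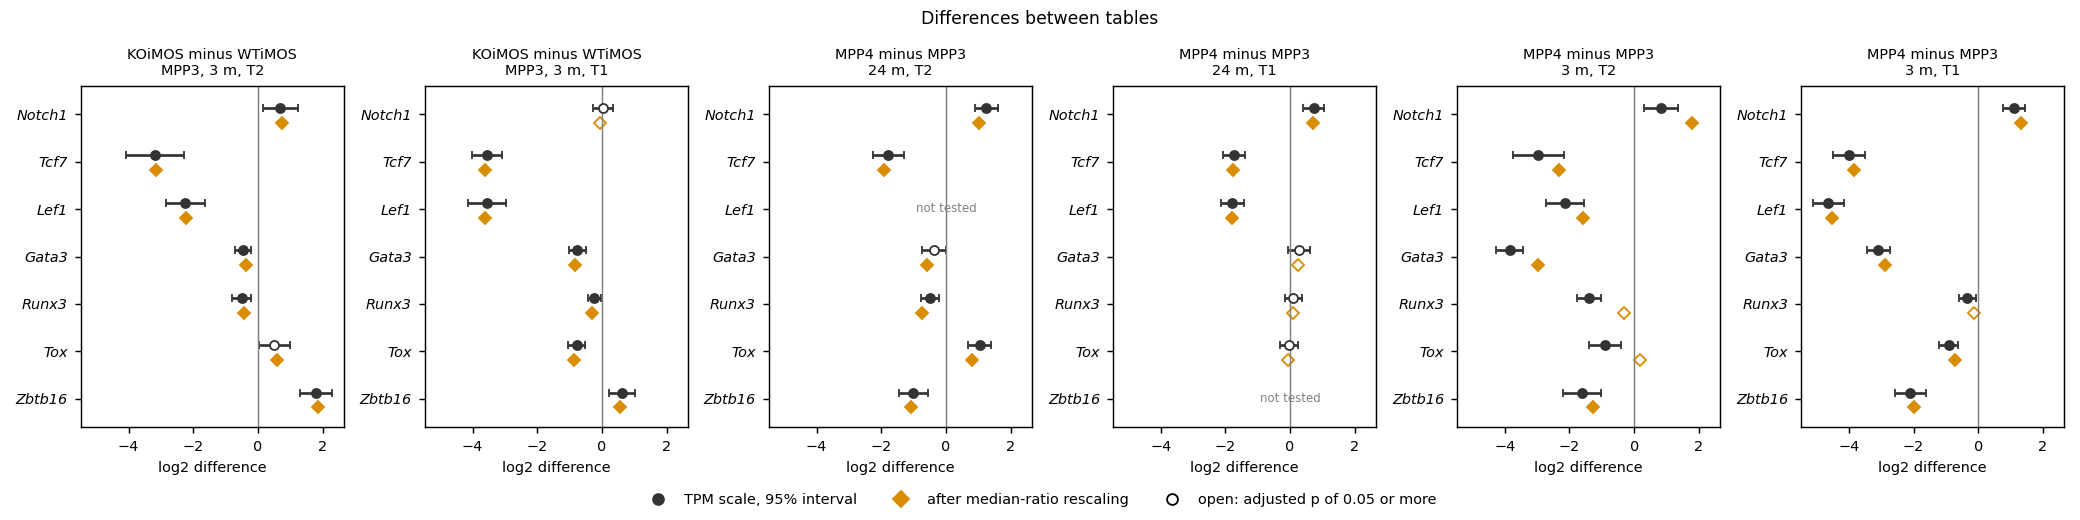
Log2 differences of 7 regulators between tables, KOiMOS minus WTiMOS in 3-month MPP3 and MPP4 minus MPP3 at 24 and 3 months, for T2 and T1 cells, with 95% intervals on the TPM scale (circles) and rescaled values (diamonds); filled symbols have an adjusted p under 0.05. Tcf7 and Lef1 lie left of 0 wherever tested, Notch1 lies right of 0 in the 4 panels of MPP4 minus MPP3, and Zbtb16 lies right of 0 in both KOiMOS panels.

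KOiMOS and WTiMOS were compared in MPP3 of 3 months, again across tables, so genotype and table cannot be told apart. In T2 cells 2 of 7 tested members were higher and 4 lower in KOiMOS (54.8% of all genes tested were called, 25.9% higher and 28.9% lower), and in T1 cells 1 of 7 was higher and 5 lower (66.3% of all genes tested were called, 38.02% higher and 28.3% lower). Tcf7 averaged 0.0610 ± 0.106 TPM in KOiMOS and 9.85 ± 6.28 TPM in WTiMOS T2 cells (log2 difference -3.18, adjusted p = 0.000181), and 1.89 ± 0.772 TPM in KOiMOS and 32.6 ± 5.88 TPM in WTiMOS T1 cells (log2 difference -3.56, adjusted p = 1.01e-06). Lef1 was lower in T2 (log2 difference -2.24, adjusted p = 0.000143) and T1 cells (log2 difference -3.55, adjusted p = 3.75e-06), beside B cell marker sums of 0.968 to 3.69 TPM in KOiMOS and 10.3 to 21.4 TPM in WTiMOS T2 cells, whose part was not tested. In T2 cells Tcf7 and Lef1 passed the filter through WTiMOS alone.

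Zbtb16 lay the other way, with 9.72 ± 0.568 TPM in KOiMOS and 2.12 ± 0.699 TPM in WTiMOS T2 cells (log2 difference 1.80, SE 0.22, adjusted p = 0.000142), and 6.43 ± 0.833 TPM in KOiMOS and 3.86 ± 0.933 TPM in WTiMOS T1 cells (log2 difference 0.62, SE 0.18, adjusted p = 0.0139). The T1 call was lost without KOiMOS T1 replicate 1 or 2 (adjusted p = 0.0605 and 0.0605). Gata3 was lower in KOiMOS T2 (log2 difference -0.45, adjusted p = 0.00685) and T1 cells (log2 difference -0.76, adjusted p = 0.000414). Runx3 was lower in T2 (log2 difference -0.50, adjusted p = 0.00999) and T1 cells (log2 difference -0.24, adjusted p = 0.0341). Its T2 call was lost without KOiMOS replicate 3 (adjusted p = 0.0512), and its T1 call without KOiMOS replicates 1, 2 and 3 (adjusted p = 0.0983, 0.127 and 0.0910) or WTiMOS replicate 2 (0.0572).

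Tox was lower in KOiMOS T1 cells (log2 difference -0.78, adjusted p = 0.000281), while in T2 cells it averaged 25.4 ± 1.16 TPM in KOiMOS and 18.3 ± 6.23 TPM in WTiMOS and missed the threshold (log2 difference 0.50, adjusted p = 0.0726). That difference was called after rescaling (log2 difference 0.58, adjusted p = 0.0372) and without WTiMOS T2 replicate 3 (adjusted p = 0.00427). Notch1 was higher in KOiMOS T2 cells (log2 difference 0.69, adjusted p = 0.0365), with a difference of 0.02 in T1 cells (95% interval -0.29 to 0.33). The T2 call was lost without KOiMOS replicates 1, 2 and 3 (adjusted p = 0.0971, 0.122 and 0.0756) and WTiMOS replicates 1 and 3 (0.0790 and 0.0823).

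Across the 10 groups the genes had different orders. For Tcf7, T1 of 3-month WTiMOS MPP3 was highest and clear of the next group, T2 of the same table, which overlapped T1 of 24-month MPP3. The 3 lowest groups, T2 of 24-month MPP4, T2 of 3-month MPP4 and T2 of KOiMOS MPP3, overlapped in sequence. Lef1 had the same highest group, then 3 MPP3 groups each clear of the next, and 6 low groups from 0.326 to 0.106 TPM that overlapped in sequence. Zbtb16 was ordered KOiMOS T2, KOiMOS T1, WTiMOS 3-month T1, WTiMOS 3-month T2, 24-month T2 and 24-month T1 over the 6 MPP3 groups, each clear of the next, and the 4 MPP4 groups followed.

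Gata3 was highest in the 4 MPP3 groups of 3 months, of which KOiMOS T2 and T1 overlapped, and lowest in T2 of 3-month MPP4. Runx3 spanned 2.75-fold, between 36.3 TPM in T2 of 3-month WTiMOS MPP3 and 13.2 TPM in T2 of 3-month MPP4, with several neighbouring groups overlapping. Notch1 spanned 4.92-fold and Tox 4.71-fold, Tox being highest in T1 of 3-month WTiMOS MPP3, clear of the next group, T2 of KOiMOS. T1 of 3-month MPP4 and T2 of 24-month MPP4 led for Notch1, each clear of the next, and the following groups, from 7.48 down to 3.61 TPM, overlapped in sequence.

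After the mean of each table was removed, Tcf7 and Lef1 correlated at 0.65 over the 30 libraries, Notch1 and Tox at 0.72, and Lef1 and Runx3 at -0.69; these points share tables and the T2 and T1 labels. By the same measure, over 9938 genes, those most like Lef1 were Ebf1 (0.954) and Vpreb1 (0.945), a factor and a receptor chain of early B cells. Runx3 was most like Gata2 (0.967) and Cd34 (0.921), a factor and a surface protein of stem and progenitor cells. Tcf7 was most like Serpinh1 (0.883) and Mid1 (0.839), Gata3 like Arpc3 (0.910) and Dusp12 (0.906), and Notch1 like Tnfrsf1a (0.924) and Rlf (0.919). Tox was most like Hpse (0.850) and Tmx4 (0.842), and Zbtb16 like Tbc1d13 (0.750) and Rbm3 (0.742).

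The rest of the Notch pathway was read by role, leaving out Notch1. Of the ligands, Jag2 was higher in T2 of KOiMOS MPP3, at 6.93 ± 0.702 TPM in T2 and 5.16 ± 0.320 TPM in T1 (log2 difference 0.36, adjusted p = 0.0199). Among the receptors, Notch3 was higher and Notch2 lower there, and Notch2 stood at 20.6 ± 1.05 TPM in T2 and 25.8 ± 1.51 TPM in T1 (log2 difference -0.31, adjusted p = 0.00580). Of the genes that cleave the receptor or modify it with sugars, 0 of 13 were higher and 2 lower in T2 of KOiMOS MPP3 (15.9% higher and 20.4% lower over all genes). The 2 were the glycosyltransferases Mfng (log2 difference -0.18, adjusted p = 0.00700) and Lfng (log2 difference -0.22, adjusted p = 0.0194). In 24-month WTiMOS MPP3 6 of 11 were higher and 0 lower (29.99% higher and 11.9996% lower over all genes; median 0.61, all genes 0.18). Psen2, a subunit of gamma-secretase, stood at 15.004 ± 0.248 TPM in T2 and 9.25 ± 0.786 TPM in T1 of that table (log2 difference 0.65, adjusted p = 0.00269). After rescaling 5 were higher and 3 lower there.

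Among the 7 genes of the nuclear complex, 0 were higher and 2 lower in T2 of KOiMOS MPP3 (15.9% higher and 20.4% lower over all genes), Maml3 (log2 difference -0.54, adjusted p = 0.0137) and Maml2 (log2 difference -0.25, adjusted p = 0.0158), coactivators of the cleaved receptor. In WTiMOS MPP3 0 of these were called at 24 or at 3 months, before or after rescaling. In MPP4 6 of 7 were higher and 0 lower in T2 at 24 months (58.2% higher and 7.003% lower over all genes), and 0 higher and 6 lower at 3 months (8.71% higher and 72.6% lower over all genes), with medians of 0.55 and -0.70 near the all-gene medians of 0.43 and -0.74. After rescaling 0 were higher and 1 lower at 24 months, and 0 higher and 2 lower at 3 months.

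Of the Notch targets, Myc, which many other signals drive too, averaged 534 ± 5.58 TPM in T2 and 659 ± 2.81 TPM in T1 of KOiMOS MPP3 (log2 difference -0.30, adjusted p = 4.23e-05), the opposite direction to WTiMOS MPP3. It averaged 152 ± 8.74 TPM in T2 and 102 ± 4.53 TPM in T1 of 24-month WTiMOS MPP3 (log2 difference 0.57, adjusted p = 0.000827), and 727 ± 56.01 TPM in T2 and 537 ± 17.9 TPM in T1 of 3-month WTiMOS MPP3 (log2 difference 0.43, adjusted p = 0.000988). In WTiMOS MPP4 it averaged 192 ± 15.998 TPM in T2 and 108 ± 2.26 TPM in T1 at 24 months (log2 difference 0.82, adjusted p = 4.01e-05), and 75.9 ± 9.31 TPM in T2 and 143 ± 9.01 TPM in T1 at 3 months (log2 difference -0.91, adjusted p = 9.17e-07; -0.09 after rescaling, not called). Hes1, a repressor that Notch turns on directly, named here after its values were seen, averaged 4.88 ± 0.853 TPM in T2 of 3-month MPP4, its highest group.

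Between MPP4 and MPP3 at 3 months, the count of Notch processing genes was 10 of 13 lower and 1 higher in T2 cells (20.5% higher and 62.2% lower over all genes) and 8 lower and 2 higher in T1 cells (33.3% higher and 44.001% lower over all genes). Their medians were -2.09 in T2 and -1.70 in T1, beside -1.04 and -0.17 over all genes. After rescaling 9 were lower and 2 higher in T2, and 8 lower and 2 higher in T1. Ncstn, a gamma-secretase subunit, averaged 16.5 ± 2.87 TPM in MPP4 and 135 ± 8.21 TPM in MPP3 for T1 cells (log2 difference -2.97, adjusted p = 3.99e-10). At 24 months (31.6% higher and 7.19% lower over all genes in T2, 14.6% higher and 10.1% lower over all genes in T1) 2 of 11 were higher and 0 lower in T2 cells, and 0 of 9 higher and 1 lower in T1 cells. Notch1 was higher in MPP4 at both ages. Notch2 was lower in MPP4 at 3 months in T1 cells (log2 difference -1.35, adjusted p = 3.63e-05).

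T cell genes other than the members were mostly lower in T2 of MPP3. In KOiMOS 6 of 8 tested were lower and 0 higher (6 and 0 after rescaling; 15.9% higher and 20.4% lower over all genes; median -0.83, all genes -0.04). In WTiMOS 8 of 14 were lower and 2 higher at 24 months (9 and 1 after rescaling; 29.99% higher and 11.9996% lower over all genes; median -0.67, all genes 0.18). At 3 months 8 of 14 were lower and 0 higher (8 and 0 after rescaling; 8.39% higher and 5.96% lower over all genes; median -1.11, all genes 0.10).

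Lat, an adaptor of the T cell receptor, averaged 58.8 ± 5.14 TPM in T2 and 134 ± 7.12 TPM in T1 of KOiMOS (log2 difference -1.18, adjusted p = 5.69e-08). In those T1 libraries the 8 mature T cell markers summed to 4.54 to 4.86 TPM, with Cd3e, Cd3g, Cd8a and Cd8b1 at 0. Trat1, another adaptor of that receptor, averaged 8.49 ± 1.23 TPM in T2 and 363 ± 28.4 TPM in T1 of 24-month WTiMOS MPP3 (log2 difference -5.27, adjusted p = 1.49e-10). Dntt, the polymerase that adds bases at antigen receptor joins in T and B lineages, averaged 44.99 ± 8.21 TPM in T2 and 172 ± 17.8 TPM in T1 of 3-month WTiMOS MPP3 (log2 difference -1.92, adjusted p = 1.49e-06). Il7r, a cytokine receptor of T, B and innate lymphoid precursors, averaged 2.25 ± 0.268 TPM in T2 and 8.09 ± 1.60 TPM in T1 at 24 months (log2 difference -1.47, adjusted p = 8.73e-05), and 2.41 ± 1.54 TPM in T2 and 13.98 ± 0.695 TPM in T1 at 3 months (log2 difference -2.26, adjusted p = 0.000771).

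Innate lymphoid genes split in T2 of KOiMOS MPP3, with 6 of 12 higher and 5 lower (15.9% higher and 20.4% lower over all genes; median 0.33, all genes -0.04). Il1rl1, the IL-33 receptor of type 2 innate lymphoid cells and mast cells, averaged 35.7 ± 3.86 TPM in T2 and 3.37 ± 0.440 TPM in T1 (log2 difference 3.07, adjusted p = 1.15e-09). Id2, an inhibitor of E proteins needed by innate lymphoid cells, averaged 53.9 ± 1.83 TPM in T2 and 7.89 ± 1.25 TPM in T1 (log2 difference 2.64, adjusted p = 2.17e-09). Il1rl1 and Id2 are among the 6 higher genes, and the 5 lower ones are not named here. Of 9 innate lymphoid cell markers, 3 were tested in KOiMOS MPP3, with 1 higher and 2 lower in T2 (median -0.70). Id2 in 3-month WTiMOS MPP3 averaged 19.4 ± 2.41 TPM in T2 and 42.1 ± 11.96 TPM in T1 (log2 difference -1.04, adjusted p = 0.00588), the opposite direction, and 5 of 15 list genes were lower and 1 higher (5 and 0 after rescaling; 8.39% higher and 5.96% lower over all genes; median -0.71, all genes 0.10). At 24 months 7 of 12 were lower and 1 higher (8 and 0 after rescaling; 29.99% higher and 11.9996% lower over all genes; median -0.67, all genes 0.18), with Nfil3, a factor of innate lymphoid precursors, at 2.48 ± 0.387 TPM in T2 and 7.09 ± 0.584 TPM in T1 (log2 difference -1.22, adjusted p = 0.000191).

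Wnt and TCF/LEF partner genes did not share a direction over the MPP3 tables. In T2 of KOiMOS 6 of 9 were lower and 0 higher (5 and 1 after rescaling; 15.9% higher and 20.4% lower over all genes), among them Tle2, a corepressor bound by TCF/LEF factors, at 23.1 ± 1.55 TPM in T2 and 48.2 ± 3.32 TPM in T1 (log2 difference -1.03, adjusted p = 5.05e-07). In WTiMOS 4 of 8 were higher and 0 lower at 24 months (2 and 0 after rescaling; 29.99% higher and 11.9996% lower over all genes), among them Ctnnb1, which encodes beta-catenin, at 148 ± 26.2 TPM in T2 and 84.5 ± 12.05 TPM in T1 (log2 difference 0.80, adjusted p = 0.00106). At 3 months 1 of 10 was higher and 0 lower (8.39% higher and 5.96% lower over all genes), the higher one being Tle2, at 30.6 ± 3.99 TPM in T2 and 17.5 ± 3.31 TPM in T1 (log2 difference 0.78, adjusted p = 0.0156).

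Among relatives of the 8, Gata2, a stem and mast cell factor, had the direction of Runx3 in WTiMOS MPP3. It averaged 39.8 ± 3.28 TPM in T2 and 12.04 ± 2.46 TPM in T1 at 24 months (log2 difference 1.66, adjusted p = 8.68e-06), and 93.2 ± 9.06 TPM in T2 and 48.9 ± 7.62 TPM in T1 at 3 months (log2 difference 0.92, adjusted p = 0.000626). Tcf7l2, a TCF factor related to Tcf7, averaged 32.1 ± 1.24 TPM in T2 and 50.03 ± 2.55 TPM in T1 of KOiMOS MPP3 (log2 difference -0.62, adjusted p = 9.50e-06), well above Tcf7 and Lef1 in TPM. Runx1, the Runx factor of blood stem cells, averaged 38.2 ± 2.58 TPM in T2 and 52.6 ± 0.445 TPM in T1 there (log2 difference -0.45, adjusted p = 0.000118), opposite to Runx3. Tox2 averaged 0.528 ± 0.599 TPM in T2 and 5.07 ± 1.33 TPM in T1 of 3-month WTiMOS MPP3 (log2 difference -2.04, adjusted p = 0.00206).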

How the data were processed

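The deposited values are TPM per gene, made by the authors and listed in 5 tables of 6 libraries each. Per the submitters' processing notes HISAT2, StringTie, featureCounts and DESeq2 were used with mm10; the notes name neither versions nor the tool behind the TPM. Per the labels' protocols, cDNA came from a low-input kit. No read counts were used, and the depth behind a value is unknown.

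TPM were tested in limma 3.58.1 (R 4.3.3) on log2(TPM + 1), with empirical Bayes (trend and robust), Benjamini-Hochberg adjustment over all genes tested and a threshold of 0.05. Genes needed 1 TPM in at least 3 of the libraries fitted. A fit held only the 2 groups compared (6 libraries), or 4 groups (12 libraries) for a difference of T2 minus T1 differences. With 3 libraries a group, each p rests on this model across genes. The script was tested on simulated data.

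The members, lists and tests were chosen with earlier results of these data known. Members are described in every comparison; of each list, up to 4 called genes a comparison could be named, by smallest p among those averaging 5 TPM or more in 1 of the groups, and of genes most like a member, those with the highest Pearson correlation over table-centred libraries. Tried as alternatives were median-ratio rescaling over genes above 1 TPM in all libraries fitted, testing with no filter, a pseudocount of 0.1, a fit of all 30 libraries with table weights, a replicate block and leaving out each library. Loci are from GENCODE vM21 (GRCm38), promoters from RefSeq (GRCm38.p6). One B cell marker is not reported here and is left out of the marker sums.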

Additional observations from a re-analysis of the deposited data

Results flagged for a closer look

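In 16 results the T2 minus T1 difference of a member itself differed between tables by a test of that difference in 1 limma model of 12 libraries; values are on the log2(TPM + 1) scale and come from tables that differ as a whole. In 3-month MPP3, KOiMOS minus WTiMOS, the value was 1.30 for Lef1 (adjusted p = 0.0283), 1.29 for Tox (adjusted p = 0.00297) and 1.18 for Zbtb16 (adjusted p = 0.0100). In WTiMOS MPP3, 24 minus 3 months, it was 1.25 for Gata3 (adjusted p = 0.00130) and 1.23 for Zbtb16 (adjusted p = 0.0209). In WTiMOS MPP4, 24 minus 3 months, it was 1.37 for Gata3, 1.63 for Notch1, 0.95 for Runx3 and 1.53 for Tox (adjusted p = 6.56e-05, 5.85e-07, 0.000114 and 1.24e-06 in that order), in a table pair whose all-gene median was 1.16; after rescaling these were 0.44, 0.46, -0.27 and 0.34, with Notch1 called.

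MPP4 minus MPP3 at 24 months gave -0.65 for Gata3 (adjusted p = 0.0483), 1.53 for Lef1 (adjusted p = 0.000358), -0.59 for Runx3 (adjusted p = 0.0246) and 1.08 for Tox (adjusted p = 0.00152). Gata3 at 24 months stayed called in 2 of the 12 fits with 1 library left out, and other calls lost in such fits are given above. MPP4 minus MPP3 at 3 months gave -0.77 for Gata3 (adjusted p = 0.0107), 2.49 for Lef1 (adjusted p = 1.14e-05) and -1.05 for Runx3 (adjusted p = 0.000260). The all-gene median of that difference was -0.81, and after rescaling neither Gata3 nor Runx3 was called. Lef1 was at most 0.342 TPM in any MPP4 library.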

How the results depend on the processing

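Rescaling by the median ratio turned the sign of the T2 minus T1 difference of Runx3 (0.23) and Tox (0.0692) in 3-month MPP4 and of Runx3 (-0.0246) in 24-month MPP4, of Tox in MPP4 against MPP3 for T2 cells of 3 months (0.17), and of Runx3 in the MPP4 difference of differences between the ages (-0.27). It also turned values that were not called, the T2 minus T1 differences of Notch1 in KOiMOS MPP3 (0.0195) and Gata3 in 24-month MPP4 (-0.0575), Notch1 in KOiMOS against WTiMOS T1 cells (-0.0480), and in differences of differences Tcf7 between the ages in MPP4 (-0.18) and Notch1 for MPP4 against MPP3 at 3 months (0.60). It left 1 member called in 3-month MPP4 (4 on the TPM scale), 1 in 24-month MPP4 (3) and 1 in the MPP4 difference of differences between the ages (4). A pseudocount of 0.1 turned the sign of Lef1 in the difference of differences between KOiMOS and WTiMOS (-0.14) and, not called, of Tcf7 in the same one (-1.83), of Lef1 between the ages in MPP3 (-0.28), and of Tox (-0.00504) and Zbtb16 (-0.29) for MPP4 against MPP3 at 3 months. With no filter 1 member was called in 3-month WTiMOS MPP3 (3 with it), and in the fit of all 30 libraries with table weights 6 were; in that fit 4 were called in the MPP3 difference of differences between the ages (2 in the smaller fit). The cause was not tested.

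With 1 library left out, the members called between T2 and T1 numbered 2 to 4 in KOiMOS MPP3, 2 to 4 in 24-month MPP3, 2 to 3 in 3-month WTiMOS MPP3, 3 to 4 in 24-month MPP4 and 4 in 3-month MPP4. For MPP4 against MPP3 they numbered 2 to 5 in T2 and 2 to 3 in T1 cells of 24 months, and 4 to 7 in T2 and 5 to 7 in T1 cells of 3 months. For KOiMOS against WTiMOS they numbered 3 to 5 in T2 and 4 to 6 in T1 cells. For the differences of differences they numbered 2 to 3 for KOiMOS against WTiMOS, 1 to 4 for the ages in MPP3, 4 for the ages in MPP4, 1 to 4 for MPP4 against MPP3 at 24 months and 3 to 4 at 3 months. Fewer libraries also leave fewer members above the filter. Values near 0 that were not called crossed it with 1 library left out: Notch1 ran from -0.0687 to 0.0353 for T2 minus T1 in KOiMOS MPP3 and from -0.0223 to 0.10 in KOiMOS against WTiMOS T1 cells, and Tox from -0.0564 to 0.0114 in MPP4 against MPP3 T1 cells of 24 months. In the differences of differences Tcf7 ran from -0.0778 to 0.81 for KOiMOS against WTiMOS and from -0.16 to 0.0920 for MPP4 against MPP3 at 24 months, and Tox from -0.20 to 0.26 at 3 months.

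With the replicate number as a block, the members called between T2 and T1 were 4 in KOiMOS MPP3, 4 in 24-month MPP3, 3 in 3-month WTiMOS MPP3, 3 in 24-month MPP4 and 4 in 3-month MPP4. Same-numbered libraries deviated together at -0.17 to 0.25 over 33 pairs, with 3 above 0.1 and 10 whose best match had their own number, so the numbers were not taken as pairs. Beyond counts of members, 1123 values for single genes kept direction and side of the threshold, 80 lost the call, 28 gained it and 30 turned sign. The unknown depth, 3 libraries a group and low TPM of Bcl11b, Lef1, Tcf7 and Zbtb16 limit what could be detected.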
